A study of Mus musculus with 12 samples.

Results

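The phase II conjugation enzymes examined here are the products of 63 protein-coding mouse genes in 3 families: the UDP-glucuronosyltransferases (symbols that start Ugt1, Ugt2 or Ugt3 and a letter), the cytosolic and kappa-class glutathione S-transferases (Gsta, Gstm, Gstp, Gstt, Gstk and Gsto) and the sulfotransferases (Sult). They were chosen by symbol alone in the GENCODE annotation of the mm10 genome build, and each family gave 21 genes. All 63 were present among the 46078 gene rows of the count table, while 7 rows with matching symbols were not protein-coding and were left out. RNA was sequenced from the livers of 12 male C57BL/6 mice (C57BL/6J by the study's methods) with diet-induced obesity, aged 21 weeks, culled 16 days after surgery and 5 hours after food was withdrawn. Vertical sleeve gastrectomy (VSG), the surgical removal of most of the stomach, was performed in 4 mice (libraries 1F, 8F, 11F and 18F). A sham operation was performed in the other 8, of which 4 had their food restricted until they matched the weight of the VSG mice (Sham-WM, libraries 2F, 9F, 15F and 16F) and 4 ate freely (Sham-Ad lib, libraries 3F, 4F, 6F and 10F). All 12 mice shared the high-fat diet, which was given before surgery and again from the day after it, so no lean or unoperated liver was compared.

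Phase II enzymes attach a polar group to drugs, hormones, bilirubin, bile acids and reactive by-products, which makes them more soluble and ready for export into bile or urine. UDP-glucuronosyltransferases sit in the endoplasmic reticulum and transfer glucuronic acid from UDP-glucuronic acid, glutathione S-transferases couple electrophiles to glutathione, and sulfotransferases transfer sulfate from the donor PAPS (3′-phosphoadenosine 5′-phosphosulfate). The liver carries out much of this conjugation, and its enzyme levels respond to xenobiotic receptors, bile acid receptors, sex-dependent growth hormone secretion and inflammation.

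Between 15122520 and 19384076 reads were counted on genes per library, and the lowest Spearman correlation between 2 libraries of a group was 0.963. The animal number in the name of each data column was used to group the libraries, because 2 fields of the sample labels pair animals and libraries differently. Grouped by the other field, the same 42 tested genes gave 0 calls in each of the 3 comparisons. The share of all genes called under that grouping is not given here. The 0 calls therefore do not set these genes apart from others. Neutrophil transcripts separated the VSG livers from the others: summed neutrophil marker levels were 30.1 to 978 CPM (TMM-normalized counts relative to library size) in VSG, against 1.12 to 2.34 in Sham-WM and 0.379 to 15.0 in Sham-Ad lib. In bulk tissue, fewer cells of a type and less RNA per cell cannot be told apart.

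Of the 63 genes, 42 passed the filter on low counts and were tested. The glutathione S-transferases were detected most completely, with 19 of 21 tested, followed by the UDP-glucuronosyltransferases with 15 of 21 and the sulfotransferases with 8 of 21. No read was counted in any of the 12 livers for 7 genes, namely Ugt2a1, Ugt2a2, Sult1c1, Sult2a3, Sult2a4, Sult2a6 and Sult3a2. A count of 0 allows up to 3 counts, which corresponded to 0.153 to 0.226 CPM depending on the library, and these limits cover counting error only. A further 10 genes never exceeded 3 counts in any library (Ugt1a8, Gstt4, Sult2a1, Sult2a2, Sult2a5, Sult2b1, Sult3a1, Sult4a1, Sult6b1 and Sult6b2). The hydroxysteroid sulfotransferases Sult2a1 and Sult2a2 reached 2 counts each in all 12 libraries together, and Sult3a1 reached 16. The last 4 untested genes, Ugt1a10, Ugt1a2, Ugt1a7c and Gsto2, were counted but fell below the filter, with at most 11, 7, 23 and 5 counts in a library. Ugt2a1 and Ugt2a2 share 98.8% and 94.5% of their exon bases with another gene on the same strand, and how reads on shared exons were assigned is not given in the sources used here.

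Levels between genes were compared per length, as CPM per kilobase of exon (RPKM). In every one of the 12 libraries the summed level was highest for the glutathione S-transferases and lowest for the sulfotransferases. Glutathione S-transferases made up 49.7% of the summed level of all 63 genes on average, with a range of 44.0% to 55.3% over libraries. UDP-glucuronosyltransferases contributed 35.1%, from 31.5% to 39.0%, and sulfotransferases 15.3%, from 13.2% to 18.0%. Dividing by the longest coding transcript in place of all exons left the order the same in 12 of 12 libraries but moved the shares to 60.2%, 25.9% and 13.9%. Together the 63 genes took 0.604% to 1.03% of the counts of a library, lowest in VSG library 1F and highest in Sham-WM library 2F.

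A few genes dominated each family. Gstm1, a mu-class transferase, had the highest mean level of all members at 603 RPKM, followed within its family by Gsta3 of the alpha class at 374, Gstp1 of the pi class at 373, Gstt1 of the theta class at 146 and Gstk1, the kappa-class enzyme of mitochondria and peroxisomes, at 83.5 RPKM. Over the longest coding transcript the order changed, with Gsta3 at 1114 RPKM above Gstp1 at 703 and Gstm1 at 689. The leading UDP-glucuronosyltransferases were Ugt2b5 at 317 RPKM, Ugt2b36 at 299.5, Ugt2a3 at 138, Ugt2b34 at 129 and Ugt2b1 at 127, most of them from the Ugt2b group that acts on steroids and bile acids. Sulfotransferase transcripts were the most concentrated: Sult2a8, a bile acid sulfotransferase of mouse liver, alone made up 49.3% of the family level at 284 RPKM. It was followed by the phenol sulfotransferase Sult1a1 at 208 RPKM, Sult1d1 at 61.6, Sult1b1, which acts on thyroid hormones, at 13.2 and Sult1c2 at 4.59. The 5 leading genes held 99.2% of the sulfotransferase level, 84.6% of the glutathione S-transferase level and 76.6% of the UDP-glucuronosyltransferase level.

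**Figure D1:**
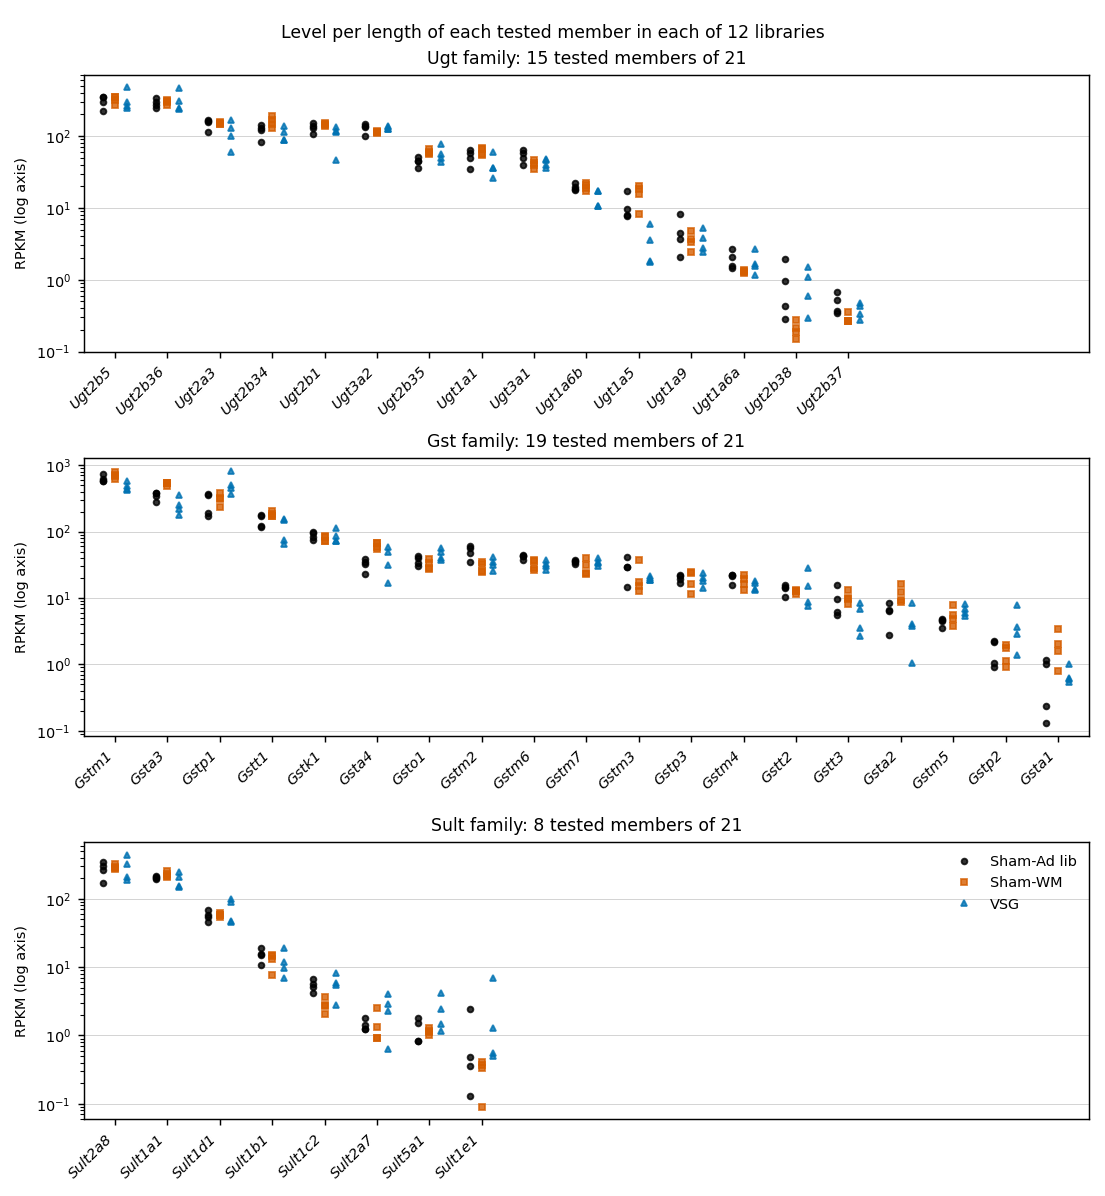
Level per length (RPKM, log axis) of the 42 tested members, one panel for each family, with 1 point for each of the 12 libraries and genes ordered by their mean. Levels run from 603 RPKM for Gstm1 down to 0.381 RPKM for Ugt2b37, and the 8 tested sulfotransferases fall away most steeply, from 284 RPKM for Sult2a8 to 1.15 RPKM for Sult1e1.

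Counted by level, 12 of the 63 genes had a mean of 100 RPKM or more, 16 lay between 10 and 100, 12 between 1 and 10 and 23 below 1. Below 1 RPKM lay 8 UDP-glucuronosyltransferases, 2 glutathione S-transferases and 13 sulfotransferases. The Ugt1a genes need a separate remark. They are 9 alternative first exons spliced to shared downstream exons, and each shares 50.3% to 60.6% of its exon bases with the others on the same strand. Ugt1a1, which conjugates bilirubin, stood at 50.8 RPKM over all its exons and at 124 RPKM over the bases it shares with no other gene, a length chosen after the data were seen. For Ugt1a6b the corresponding values were 17.8 and 45.1 RPKM, and for Ugt1a5 they were 9.85 and 24.3 RPKM.

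Summed over a family, the VSG livers overlapped with both sham groups in all 3 families. Glutathione S-transferases summed to 1638, 1788, 1892 and 1768 RPKM in Sham-Ad lib, 2263, 2029, 1997 and 2047 in Sham-WM and 1325, 1574, 2265 and 1792 in VSG. All 4 Sham-WM livers were thus above all 4 Sham-Ad lib livers, while the VSG livers spanned both. UDP-glucuronosyltransferases had means of 1313 ± 209 (SD, n = 4), 1393 ± 85.3 and 1252 ± 319 RPKM in the same order of groups, and sulfotransferases 559 ± 90.7, 594 ± 45.4 and 574 ± 188 RPKM. The summed levels of the classes within the glutathione S-transferase family went different ways. Most of each sum described here came from a single gene, Gsta3 in the alpha, Gstm1 in the mu and Gstp1 in the pi class. Their means were 374, 603 and 373 RPKM. In the mu and pi classes not every member followed the sum. Alpha-class genes summed to 383 ± 44.4 RPKM in Sham-Ad lib, against 600.0 ± 21.4 in Sham-WM, and to 298 ± 96.6 in VSG, and every Sham-WM liver lay above every other liver. Mu-class genes had means of 803 ± 83.6, 839.6 ± 78.9 and 621 ± 62.0 RPKM, with all 4 VSG livers below the 8 sham livers. Pi-class genes had means of 293 ± 109.2, 331 ± 68.1 and 559 ± 201 RPKM, the highest in VSG. These sums are given as a description, without a test.

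**Figure D2:**
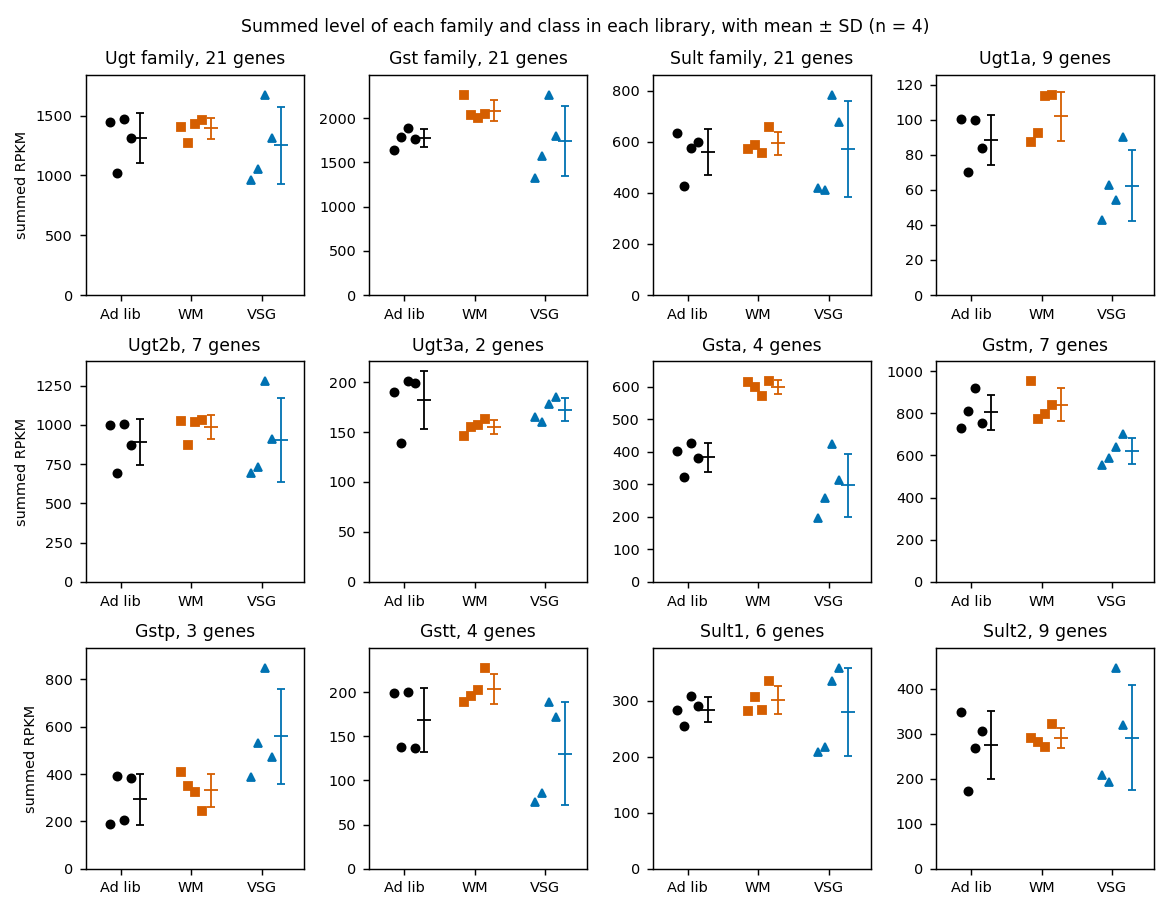
Summed level per length (RPKM) of each family and of 9 classes within them, with 1 point per library and the mean ± SD of the 4 libraries of a group. The Gsta panel shows the 4 Sham-WM livers from 570 to 616 RPKM above all others, the Gstm panel the 4 VSG livers below all others, and the family panels overlapping groups.

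Members varied more between mice of a group than genes in general did, most of all after VSG. The median coefficient of variation of the 42 tested members was 34.4% in VSG, against 21.2% for all tested genes, 20.2% against 14.1% in Sham-Ad lib and 15.1% against 13.95% in Sham-WM. Single livers stood out within their group. Of the 42 tested members, 24 were highest within VSG in library 11F, 21 were lowest within VSG in library 1F and 23 were lowest within Sham-Ad lib in library 4F, where 34.9%, 22.2% and 26.1% of all tested genes did the same. The highest over the lowest of the 12 libraries ranged from 1.51-fold for Ugt3a2, the steadiest member, to 75.9-fold for Sult1e1, with a median of 2.63-fold. For Sult1e1 the highest library, 1F, had 143 counts and the lowest, 16F, had 2, so its ratio is imprecise.

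The comparison of VSG with Sham-Ad lib asks what surgery with its weight loss changed against obese controls. No member passed an adjusted p of 0.05 in edgeR's quasi-likelihood test with Benjamini-Hochberg adjustment over 13054 genes. Few genes did at all: 0.467% of the genes tested were called higher and 0.283% lower. At an unadjusted p under 0.05 stood 11 members, 4 higher and 7 lower, beside 24.1% of all genes. DESeq2 called 5 (Ugt1a5, Gstm1, Gstm2 and Gstm6 lower, Gstp1 higher). The share of all genes it called is not given here, so this count does not set the members apart from other genes. The lowest adjusted p in edgeR was 0.0567, for Ugt1a5. Groups did not overlap for 3 of the 42 members (Ugt1a5 and Ugt1a6b lower, Gstm5 higher), where 9.21% of all genes did not. The median log2 fold change of the 42 members was -0.095, beside 0.028 for all genes.

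Weight matching alone was compared in Sham-WM against Sham-Ad lib, which uses the same 4 control livers. In this comparison 1 of the 42 members was called, Gstm2, which was lower, where 3.53% of all genes were called higher and 3.45% lower. The number at an unadjusted p under 0.05 was 11, with 4 higher and 7 lower, beside 21.6% of all genes. DESeq2 called 5 (Gsta3 and Gsta4 higher, Ugt2b38, Gstm2 and Sult1c2 lower), again without a share of all genes to set beside them. Groups did not overlap for 8 of 42 members, 4 in each direction, where 17.6% of all genes did not. The median log2 fold change of the members was 0.001, equal to that of all genes.

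VSG and Sham-WM livers, taken from mice of matched weight, differed in 11 of the 42 members. Higher after VSG were 5 members (Ugt2b38, Gsto1, Gstp2, Sult1c2 and Sult1e1), where 15.0% of all genes were called higher, and 6 members were lower (Ugt1a5, Ugt1a6b, Ugt2b34, Gsta2, Gsta3 and Gstm1), where 11.9% of all genes were called lower. The share of members called was 26.2%, beside 26.9% of all genes, so the members were called about as often as the transcriptome. The 3 families were also called at similar shares, with 4 of 15 UDP-glucuronosyltransferases, 5 of 19 glutathione S-transferases and 2 of 8 sulfotransferases. Groups did not overlap for 10 members, 3 higher and 7 lower, where 26.2% of all genes did not. Median log2 fold changes were -0.019 for the Ugt family, -0.022 for the Gst family and 0.53 for the Sult family, beside 0.028 for all genes. DESeq2 called 18 members in this comparison, all 11 among them. The share of all genes that DESeq2 called is not given here for any comparison. Its counts therefore do not set the members apart from other genes. Of the 11 calls, Ugt1a5, Gsta3 and Gstm1 held without each of the 12 libraries in turn, and the other 8 were lost without at least 1. With 2 RUVs factors, which adjust for unwanted variation, the calls of Ugt1a5 (-0.99, adjusted p 0.201) and Gstm1 (-0.33, adjusted p 0.344) were lost in edgeR, and Gsta3, Gsto1 and Sult1c2 stayed called.

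**Figure D3:**
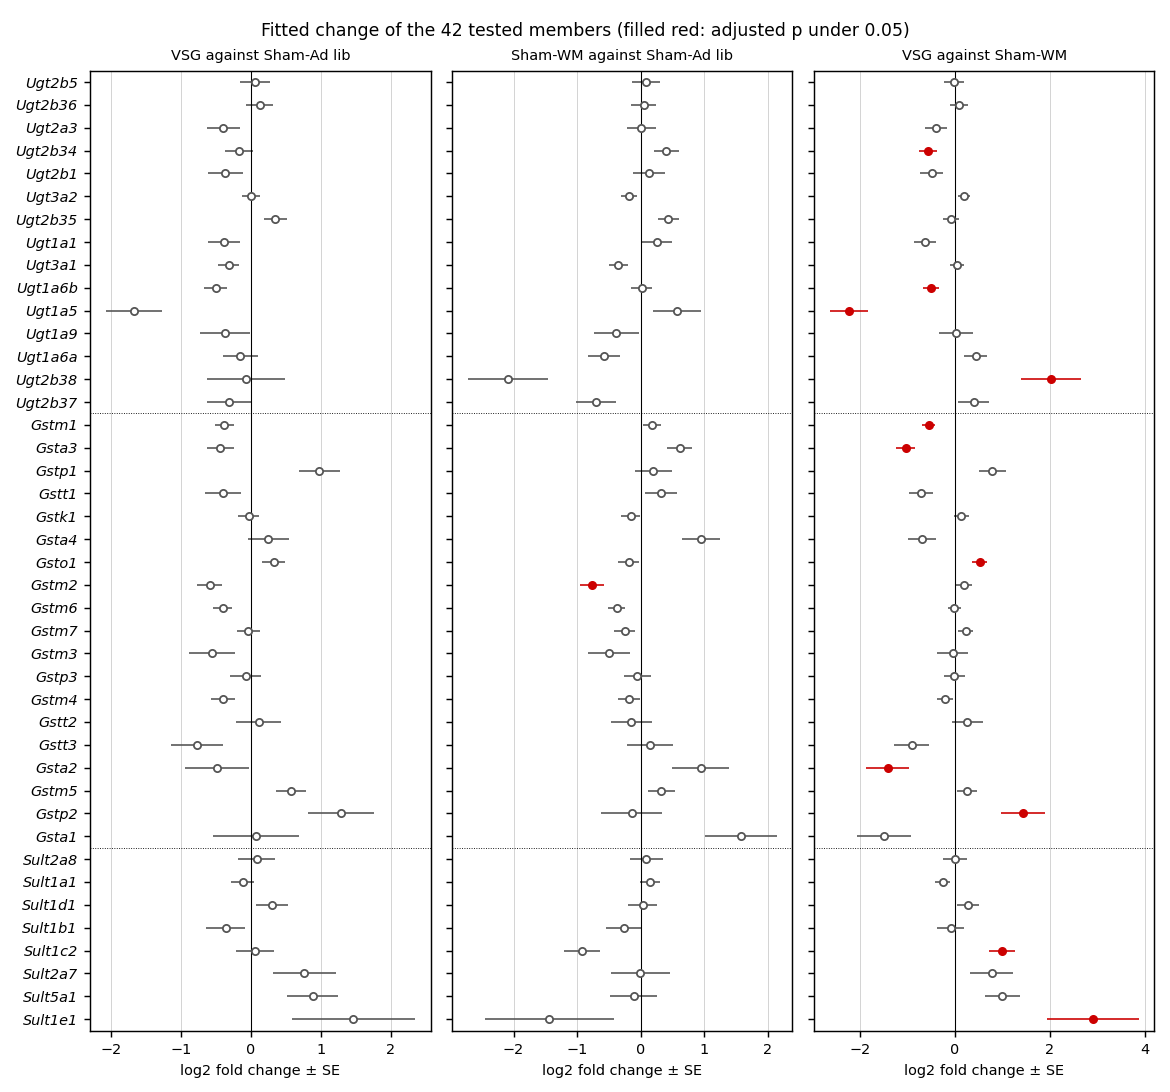
Fitted log2 fold change ± SE of the 42 tested members in the 3 comparisons, by family and ordered by level, with filled red points for an adjusted p under 0.05 in edgeR. The left panel has 0 filled points, the middle panel 1 (Gstm2) and the right panel 11, which run from -2.24 for Ugt1a5 to 2.91 for Sult1e1.

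Within the Ugt1a locus, VSG livers had less of 2 transcripts that start at separate first exons. Ugt1a5 (ENSMUSG00000089943, mm10 chr1:88166012-88218997, plus strand) stood at 37.8, 17.3, 16.9 and 21.1 CPM in Sham-Ad lib, 18.0, 34.9, 45.2 and 40.1 in Sham-WM and 3.94, 7.965, 4.07 and 13.0 in VSG. Every VSG liver was below every sham liver. Against Sham-WM the log2 fold change was -2.24 ± 0.40 (SE), with an adjusted p of 0.00244 in edgeR, and against Sham-Ad lib it was -1.67 ± 0.40 with an adjusted p of 0.0567. The call against Sham-WM held in 19 of 21 alternatives, but not with 2 RUVs factors or the other label field. Ugt1a6b, an isoform that conjugates planar phenols (chr1:88103252-88219003, plus strand), stood at 44.25, 42.6, 53.5 and 46.55 CPM in Sham-Ad lib, 44.7, 40.9, 53.8 and 49.2 in Sham-WM and 25.7, 40.7, 25.1 and 40.4 in VSG. Again the 4 VSG livers were lowest, although the highest VSG value lay just under the lowest Sham-WM value. Its log2 fold change against Sham-WM was -0.51 ± 0.17 (adjusted p 0.0374, edgeR), and the adjusted p ran up to 0.106 when single libraries were left out, passing 0.05 without 2F, 15F, 16F, 1F or 11F. The bilirubin enzyme Ugt1a1 had 57.3, 79.95, 81.0 and 134 CPM in VSG, and its log2 fold change against Sham-WM of -0.63 ± 0.23 did not pass the test (adjusted p 0.0601, edgeR). Ugt1a6a and Ugt1a9 had log2 fold changes of 0.43 and 0.01. Counts of these genes are uncertain where reads fell on the shared exons or on a gene annotated on the opposite strand, Gm20528.

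On chromosome 5 the Ugt2 genes lie next to a group of sulfotransferase genes, and called members there went in opposite directions. Ugt2b34 (chr5:86889767-86906937, minus strand) stood at 618, 355.5, 564 and 533 CPM in Sham-Ad lib, 636, 559, 731.5 and 809 in Sham-WM and 377, 386, 595 and 489 in VSG. VSG livers were mostly lower, with 11F inside the Sham-WM range. The log2 fold change against Sham-WM was -0.57 ± 0.20, with an adjusted p of 0.0474 in edgeR that rose above 0.05 without any of 3F, 6F, 2F, 15F, 16F, 1F, 8F or 18F, up to 0.132. Ugt2b38 lies 520 kb away (chr5:87409942-87424203, minus strand) and was scarce: 1.84, 0.805, 0.541 and 3.64 CPM in Sham-Ad lib, 0.357, 0.512, 0.408 and 0.281 in Sham-WM and 2.03, 0.562, 2.86 and 1.14 in VSG. Its Sham-WM values lay below all 8 others, and its log2 fold change of VSG against Sham-WM was 2.03 ± 0.63 (adjusted p 0.0315, edgeR). That call was lost without 2F, 9F, 15F, 16F, 1F or 11F, with an adjusted p of up to 0.0871. Ugt2b38 shares 24.2% of its 100-base words with the far more abundant Ugt2b5, so its counts are uncertain. Ugt2b5 itself had log2 fold changes of 0.06, 0.08 and -0.02 in the 3 comparisons and Ugt2b36 of 0.13, 0.04 and 0.09, with SEs of 0.21 and 0.19, and neither passed a test. Ugt2a3 and Ugt2b1 had log2 fold changes of -0.40 ± 0.23 and -0.49 ± 0.25 in VSG against Sham-WM, with adjusted p values of 0.213 and 0.152 in edgeR. For Ugt2b1 all 4 VSG livers, at 118 to 345 CPM, were below the Sham-WM livers at 361 to 388.

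Sult1e1, the oestrogen sulfotransferase, lies 166 kb from Ugt2b38 on the same chromosome (chr5:87575969-87591594, minus strand) and had the greatest fitted change of any member. It was scarce, at 0.446, 0.161, 0.595 and 3.01 CPM in Sham-Ad lib, 0.5096, 0.461, 0.408 and 0.113 in Sham-WM and 8.54, 1.58, 0.678 and 0.626 in VSG. All 4 VSG livers were above all 4 Sham-WM livers, but 1F stood far above the others of its group. Against Sham-WM the log2 fold change was 2.91 ± 0.97 (adjusted p 0.0417, edgeR), and without 1F it was 1.36 with an adjusted p of 0.255. Leaving out 6F, 2F, 9F, 15F or 16F also ended the call, with adjusted p values from 0.0502 to 0.107. Against Sham-Ad lib the log2 fold change was 1.47 ± 0.88 (adjusted p 0.323), and 1 Sham-Ad lib liver, 10F, had more than 3 of the VSG livers.

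The alpha class of glutathione S-transferases contrasted the 2 weight-loss groups. Gsta3 (ENSMUSG00000025934, chr1:21240589-21265661, plus strand) stood at 1636, 1212, 1638 and 1483 CPM in Sham-Ad lib, 2360, 2314, 2125 and 2301 in Sham-WM and 773, 965, 1567 and 1104 in VSG. Sham-WM livers formed a tight group above all others. The log2 fold change of VSG against Sham-WM was -1.045 ± 0.19, with an adjusted p of 0.00279 in edgeR, and the call held in 20 of 21 alternatives, all but the other label field. Against Sham-Ad lib the log2 fold change was 0.61 ± 0.19 in Sham-WM (adjusted p 0.0757) and -0.44 ± 0.19 in VSG (adjusted p 0.187), and neither passed the test in edgeR. Gsta2 (chr9:78331018-78355788, minus strand) stood at 3.29, 7.73, 9.79 and 7.59 CPM in Sham-Ad lib, 10.9, 10.09, 14.5 and 19.1 in Sham-WM and 1.255, 4.39, 4.745 and 9.95 in VSG. Here too the 4 Sham-WM livers were above all others, although VSG library 18F came close. The log2 fold change against Sham-WM was -1.42 ± 0.46 (adjusted p 0.0358, edgeR), and the call was lost without 15F, 16F, 1F, 8F or 11F, with an adjusted p of up to 0.1025. Gsta1 and Gsta4, which detoxifies the lipid peroxidation product 4-hydroxynonenal, had log2 fold changes of -1.51 ± 0.57 and -0.695 ± 0.29 in the same comparison and did not pass (adjusted p 0.0639 and 0.0929). Gsta1 shares 81.8% and Gsta2 35.02% of their 100-base words with a neighbouring predicted gene (Gm3776 and Gm10639), so counts of both are uncertain.

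Mu-class genes lie side by side on chromosome 3. Gstm1 (ENSMUSG00000058135, chr3:108012255-108017973, minus strand) stood at 847.5, 918, 1070 and 838 CPM in Sham-Ad lib, 1159, 921, 1016 and 1060 in Sham-WM and 618, 654, 713 and 843 in VSG. The VSG livers were below all Sham-WM livers and overlapped with Sham-Ad lib in 1 liver, 18F. Against Sham-WM the log2 fold change was -0.555 ± 0.14, with an adjusted p of 0.01165 in edgeR, and against Sham-Ad lib -0.38 ± 0.14 (adjusted p 0.127). Its call, too, held in 19 of 21 alternatives and was lost with 2 RUVs factors and with the other label field. Gstm2 (chr3:107981702-107986453, minus strand) was the single member called in Sham-WM against Sham-Ad lib. Its values were 59.15, 78.7, 100.5 and 94.7 CPM in Sham-Ad lib, 57.9, 42.3, 41.8 and 53.6 in Sham-WM and 52.0, 57.4, 69.15 and 43.2 in VSG. Both weight-loss groups were mostly below Sham-Ad lib, which only 1 VSG liver reached. The log2 fold change was -0.77 ± 0.18 in Sham-WM (adjusted p 0.0236) and -0.59 ± 0.18 in VSG (adjusted p 0.0906), both against the same Sham-Ad lib livers in edgeR. Without 6F, 10F, 9F, 15F or 16F the Sham-WM call was lost, with adjusted p values of up to 0.0839. Of the other mu-class genes none was called in edgeR, and Gstm6 had log2 fold changes of -0.38 and -0.40 in Sham-WM and VSG against Sham-Ad lib.

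**Figure D4:**
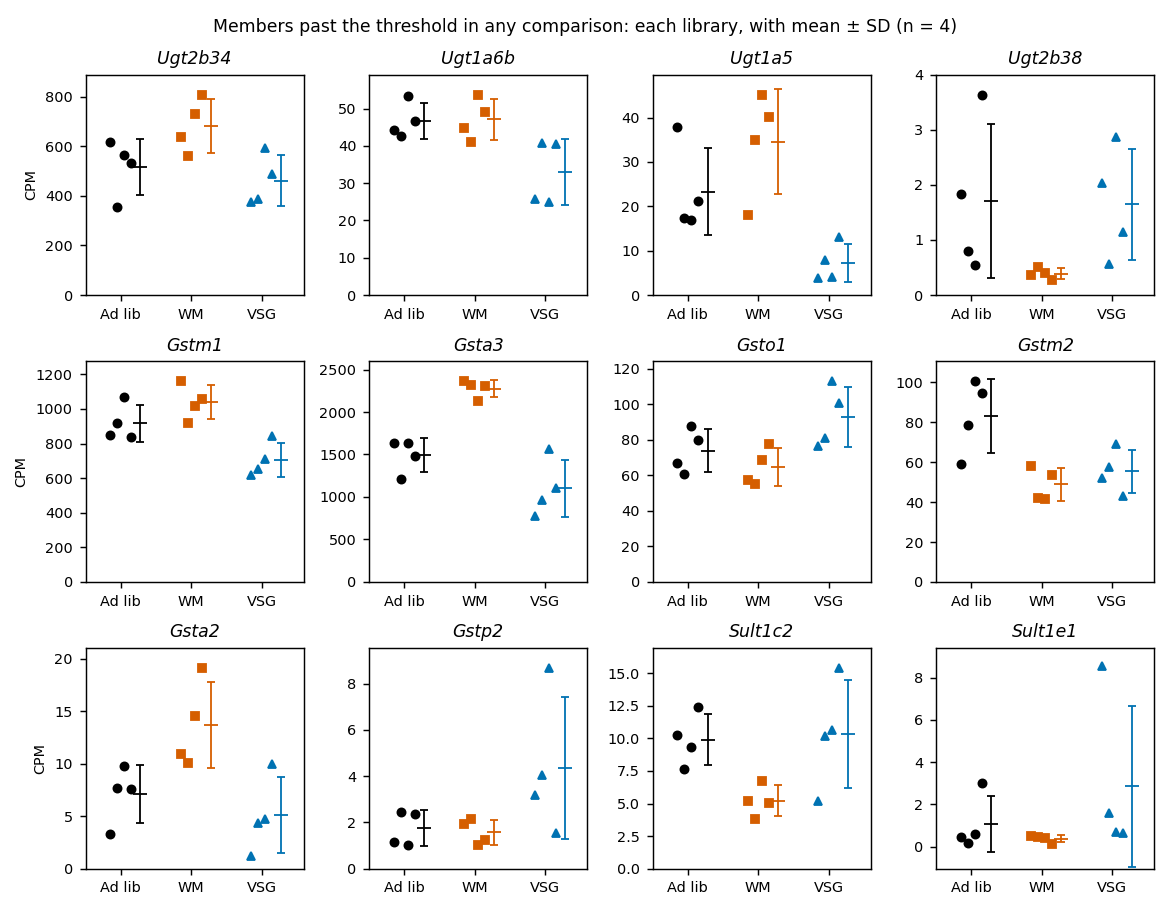
CPM of the 12 members called in any comparison, with 1 point per library and the mean ± SD of the 4 libraries of a group beside it. Gsta3 shows the Sham-WM livers at 2125 to 2360 CPM above all others, Ugt1a5 the VSG livers at 3.94 to 13.0 CPM below all others, and Sult1e1 a single VSG liver at 8.54 CPM above the rest.

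In the pi class, Gstp2 was called and Gstp1 was not. Gstp1 stood at 267, 569, 290 and 556.5 CPM in Sham-Ad lib, 590, 498, 476 and 356.5 in Sham-WM and 566, 777.5, 1268 and 707.5 in VSG. The groups overlapped by 1 liver in each comparison with VSG, and the Sham-Ad lib livers fell into a low pair (3F and 6F) and a high pair (4F and 10F). It had a log2 fold change of 0.98 ± 0.29 against Sham-Ad lib and 0.79 ± 0.29 against Sham-WM, and neither passed the test in edgeR (adjusted p 0.0846 and 0.0613). Gstp2 (chr19:4040285-4046023, minus strand), its scarce neighbour, was called against Sham-WM, with 1.17, 2.47, 1.03 and 2.38 CPM in Sham-Ad lib, 1.94, 2.15, 1.02 and 1.24 in Sham-WM and 3.17, 4.03, 8.66 and 1.54 in VSG. Here 3 of the 4 VSG livers exceeded all shams. Its log2 fold change was 1.44 ± 0.47 (adjusted p 0.0385, edgeR), fell to 0.88 without 11F (adjusted p 0.138) and was not called without 2F, 15F, 16F, 1F or 8F either. Gstp2 shares 63.5% of its 100-base words with Gstp1 and Gstp1 52.8% with Gstp2, so reads of the 2 genes may not have been told apart. Gstp3, whose words are shared with no other gene, had log2 fold changes of -0.07, -0.055 and -0.02 in the 3 comparisons.

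Among the remaining glutathione S-transferases, Gsto1 was called. The omega-class enzyme Gsto1, which reduces dehydroascorbate (chr19:47854970-47864790, plus strand), stood at 66.9, 60.85, 88.0 and 79.7 CPM in Sham-Ad lib, 57.2, 54.99, 68.9 and 77.7 in Sham-WM and 76.5, 80.8, 112.8 and 101 in VSG. VSG livers were high and met the Sham-WM range in 1 liver, 1F. The log2 fold change against Sham-WM was 0.52 ± 0.16 (adjusted p 0.0312, edgeR), and adjusted p values without 2F, 9F, 15F, 11F or 18F were 0.0567 to 0.0799. Gstt1, a theta-class enzyme that metabolises small halogenated solvents, was at 99.96, 112.1, 234 and 227 CPM in VSG, below all 4 Sham-WM livers at 257.6 to 308, with a log2 fold change of -0.72 ± 0.26 that did not pass (adjusted p 0.0534). Gstk1 had log2 fold changes of -0.03, -0.16 and 0.135, and none was called.

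Sult1c2 (chr17:53829637-53846339, minus strand), a cytosolic sulfotransferase of phenolic compounds, was the second sulfotransferase called. It stood at 10.3, 7.67, 9.30 and 12.4 CPM in Sham-Ad lib, 5.20, 3.84, 6.73 and 5.01 in Sham-WM and 5.20, 10.2, 10.6 and 15.4 in VSG. Sham-WM livers were below all Sham-Ad lib livers and below 3 of the 4 VSG livers. Sult1c2 had a log2 fold change of 0.99 ± 0.28 in VSG against Sham-WM (adjusted p 0.0206, edgeR) and -0.93 ± 0.28 in Sham-WM against Sham-Ad lib (adjusted p 0.0628). Without 9F, 16F or 18F the first of these was not called, with adjusted p values of 0.05525, 0.0532 and 0.0522. The abundant sulfotransferases showed no call in any comparison. Sult2a8 was at 562 to 1142 CPM in Sham-Ad lib, against 886.5 to 1050 in Sham-WM, and 625 to 1449 in VSG, with log2 fold changes of 0.085, 0.087 and -0.003 and an SE of 0.26 each. For Sult1a1 they were -0.12, 0.15 and -0.265, for Sult1d1 0.31, 0.03 and 0.28 and for Sult1b1 -0.36, -0.26 and -0.096. Sult5a1 had 18.45 and 10.9 CPM in VSG libraries 11F and 18F against 4.48 to 5.73 in Sham-WM, and its log2 fold change of 0.996 ± 0.365 did not pass (adjusted p 0.0585).

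With 4 livers per group, the exact two-sided permutation test on a single gene cannot go below p = 0.0286. Of the 12 called members, 8 reached this value in the comparison in which they were called. The other 4, all in VSG against Sham-WM, gave exact permutation p values of 0.0571 for Ugt2b34, Gsto1 and Sult1c2 and 0.0857 for Gstp2.

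Promoter sequence is shown for 5 of the called members, the 3 whose call held without each library in turn and the 2 with the greatest rise, to place the regulatory sequence beside the values above. The 250 bases before the RefSeq start (build GRCm38.p6) are written 5′ to 3′ on the strand of the gene, with matches to the motifs searched in capitals. Capitals mark GCGTG, the core of the xenobiotic response element, in Ugt1a5 and Gstm1, AGGTCA, the nuclear receptor half-site, in Ugt2b38 and (on the other strand) Sult1e1, and TGACNNNGC, the core of the antioxidant response element, in Gsta3.
Ugt1a5 (chr1:88165762-88166011, plus strand): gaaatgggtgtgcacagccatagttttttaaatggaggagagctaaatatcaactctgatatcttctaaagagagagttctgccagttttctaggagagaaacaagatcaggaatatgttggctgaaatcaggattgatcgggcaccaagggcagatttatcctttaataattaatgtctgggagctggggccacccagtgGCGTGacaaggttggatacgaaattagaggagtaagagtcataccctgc
Ugt2b38 (chr5:87424204-87424453, minus strand): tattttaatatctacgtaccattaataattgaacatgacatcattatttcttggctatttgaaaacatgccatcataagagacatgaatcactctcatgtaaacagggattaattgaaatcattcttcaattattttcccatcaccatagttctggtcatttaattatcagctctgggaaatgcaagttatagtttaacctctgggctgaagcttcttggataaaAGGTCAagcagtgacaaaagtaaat
Gsta3 (chr1:21240335-21240584, plus strand): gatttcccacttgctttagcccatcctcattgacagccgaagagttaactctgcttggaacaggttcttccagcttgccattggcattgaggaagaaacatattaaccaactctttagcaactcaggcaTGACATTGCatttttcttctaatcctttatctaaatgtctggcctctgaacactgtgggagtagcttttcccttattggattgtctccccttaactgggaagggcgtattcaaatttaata
Gstm1 (chr3:108017974-108018223, minus strand): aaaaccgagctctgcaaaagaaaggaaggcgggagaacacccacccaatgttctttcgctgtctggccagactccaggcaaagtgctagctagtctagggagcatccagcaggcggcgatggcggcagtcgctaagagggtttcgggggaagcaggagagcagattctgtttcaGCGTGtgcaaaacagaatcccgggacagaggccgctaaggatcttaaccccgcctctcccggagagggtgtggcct
Sult1e1 (chr5:87591612-87591861, minus strand): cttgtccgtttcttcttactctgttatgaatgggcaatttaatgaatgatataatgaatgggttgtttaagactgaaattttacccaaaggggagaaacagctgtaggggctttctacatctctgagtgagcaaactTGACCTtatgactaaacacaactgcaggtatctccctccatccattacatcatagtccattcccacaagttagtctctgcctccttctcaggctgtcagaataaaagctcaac

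Such windows within 1000 bases of the GENCODE start were found for 50 of the 63 members. Each member had a single window, while the windows of all genes, 32851 for 27025 genes, could be several per gene at any distance. The windows of all genes left out chromosome 18. Searched on both strands, TGACNNNGC occurred in 2 of the 50 (Gsta3 and Gstm5) and in 10.2% of the 32851 windows of all genes, GCGTG in 7 of 50 and 28.2% of all, and AGGTCA in 10 of 50 and 14% of all. By family, AGGTCA was in 7 of 18 UDP-glucuronosyltransferase windows, 1 of 17 glutathione S-transferase windows and 2 of 15 sulfotransferase windows. Of the first 7, 5 belonged to Ugt2b genes. TTCNNNGAA, a STAT site, was found in 3 of 50 and 7.02% of all windows. The E-box CACGTG, found in 6.02% of all windows, was in none of the 50. A match describes the letters only, and binding was not measured.

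Genes around the supply and use of the conjugating donors were read beside the families, as lists chosen by function. These lists also hold transporters and degrading enzymes, so not every gene in them supplies a donor to the families. Donor supply for sulfation was the pathway list with the most calls in VSG against Sham-WM, 3 higher and 4 lower of 10 tested. Of all genes tested, 15.0% were called higher and 11.9% lower in this comparison. The list had a median log2 fold change of -0.285. Both PAPS synthases were lower, Papss2 by -0.817 ± 0.19 on the log2 scale (adjusted p 0.00791) and Papss1 by -0.70 (adjusted p 0.00268), as was the sulfite oxidase Suox at -0.64 (adjusted p 0.008875, edgeR). The PAPS transporter of the Golgi, Slc35b2, was higher at 1.01 (adjusted p 0.00163) and lower in Sham-WM against Sham-Ad lib at -0.61 (adjusted p 0.0403, edgeR). Also called in VSG against Sham-WM were Slc35b3, higher at 0.58, Cdo1, higher at 0.53, and Bpnt1, lower at -0.48. Cdo1 had means of 1694 CPM in VSG and 1177 in Sham-WM. None of the 3 genes of UDP-glucuronic acid supply was called in any comparison, with log2 fold changes of Ugdh, which makes the donor, of -0.19, -0.16 and -0.035. Of 11 tested genes of glutathione supply, Gclc, the catalytic subunit of the rate-limiting enzyme, was lower in VSG against Sham-WM at -0.59 (adjusted p 0.0130), and Chac1, which degrades glutathione, was higher at 1.84 (adjusted p 0.0367). The list medians were -0.035 and 0.088, near the 0.028 of all genes.

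Other conjugating enzymes had 3 calls of 15 tested in VSG against Sham-WM. The share of all genes called in that comparison was 26.9%, and the counts of the lists below stand beside it. The nicotinamide methyltransferase Nnmt was higher at 1.279 (adjusted p 0.00635) and the microsomal glutathione transferase Mgst3 lower at -0.81 (adjusted p 0.01935, edgeR). Among 16 receptors and transcription factors 3 were lower, among them Foxa2 at -0.61 (adjusted p 0.02035) and Arnt, the partner of the aryl hydrocarbon receptor, at -0.55 (adjusted p 0.0219), and Foxa2 was higher in Sham-WM against Sham-Ad lib at 0.996 (adjusted p 0.00476). The receptors themselves were not called. Nr1i2, the pregnane X receptor, had log2 fold changes of -0.12, -0.02 and -0.10 and Nr1i3, the constitutive androstane receptor, of 0.06, -0.07 and 0.13. Those of Ahr were -0.08, 0.12 and -0.195, and those of Nfe2l2, the regulator of the antioxidant response, 0.16, 0.01 and 0.15. Ppara, the fatty acid receptor, had larger ones of -0.957, -0.568 and -0.388 (adjusted p 0.0635, 0.193 and 0.248, edgeR). Its Sham-Ad lib livers were above all livers of both other groups. Of 10 receptor target genes outside the families, 2 were lower in VSG against Sham-WM, Cyp4a14, a target of the fatty acid receptor Ppara, at -2.91 (adjusted p 0.00972) and Txnrd1, a target of Nfe2l2, at -0.37 (adjusted p 0.00952), and Txnrd1 was higher in Sham-WM against Sham-Ad lib at 0.32 (adjusted p 0.0470). The list median was -0.66. In the export and hydrolysis list 1 of 6 was called, the efflux pump Abcg2, lower at -0.69 (adjusted p 0.0301). In VSG against Sham-Ad lib none of the genes of these 7 lists was called, where 0.751% of all genes were.

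**Figure D5:**
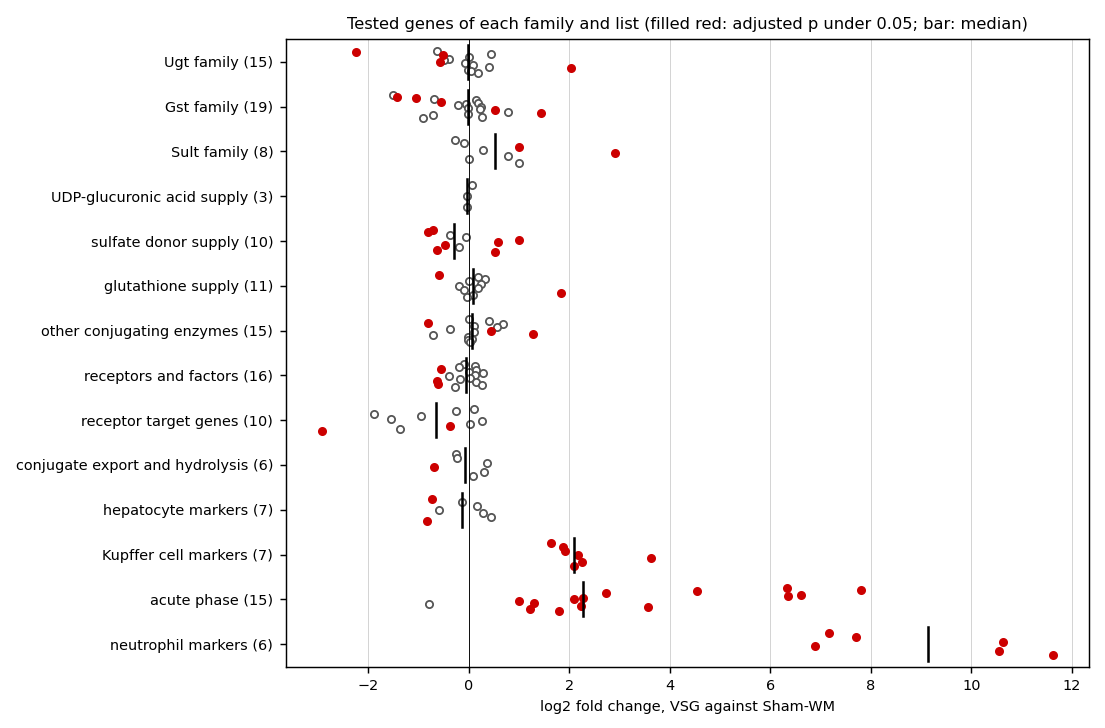
Log2 fold change of VSG against Sham-WM for each tested gene of the 3 families, of 7 lists of the conjugation pathway and of 4 marker lists, with filled red points for an adjusted p under 0.05 in edgeR and a bar at the median. The families and pathway lists scatter on both sides of 0, while the 7 Kupffer cell and 6 neutrophil markers all lie above 0.

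Markers of other cells and of inflammation moved with the same comparison, VSG against Sham-WM, in which 15.0% of all genes were called higher and 11.9% lower. In VSG against Sham-WM 14 of 15 acute phase genes were higher, with summed levels of 18840 to 87490 CPM in VSG and 10920 to 13390 in Sham-WM, and so were 7 of 7 Kupffer cell markers (459 to 1298 CPM against 124 to 215), 6 of 6 tested neutrophil markers, 3 of 5 B and plasma cell markers (30.0 to 125 CPM against 6.40 to 15.0) and 4 of 5 T and NK cell markers (4.04 to 8.84 CPM against 1.48 to 3.26). Sham-Ad lib livers were uneven, with acute phase sums of 10830, 34740, 13710 and 43020 CPM. Of 7 hepatocyte markers 2 were lower (Alb and Cps1), and the sum of the 7 was 85600 to 128000 CPM in VSG against 126500 to 157900 in Sham-WM. Most of this sum was Alb, with means of 64000 CPM in VSG and 106100 in Sham-WM. The median log2 fold change of the list was -0.126. Ttr and Apob also had negative values (-0.126 and -0.597), while Ahsg, Serpina1c and Apoa1 had positive ones (0.277, 0.444 and 0.157). The neutrophil marker sum was highest in VSG library 1F at 978 CPM and lowest in 18F at 30.1. Among the neutrophil genes Camp was at 0 in all Sham-WM livers and Ly6g, at 0 in all 8 sham livers, was too low to test. The part of these cells in the differences of the conjugation enzymes was not tested.

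For the other marker lists in VSG against Sham-WM, 0 of 5 cholangiocyte markers, 1 of 6 sinusoidal endothelial markers (Kdr, lower), 4 of 8 stellate cell markers (Lrat, Reln and Acta2 lower, Rgs5 higher) and 0 of 5 red blood cell markers were called. Of the adipocyte, exocrine pancreas and intestinal or stomach lists, 1 gene each could be tested and none was called in this comparison. The share of all genes called in it was 26.9%. Male-biased liver genes gave 1 higher (Mup20, 2.04) and 1 lower (Elovl3, -2.83) of 9, and female-biased genes 3 lower of 5 tested, among them Cyp2b9 at -3.48 and Cyp2b13 at -5.11 on the log2 scale, with adjusted p values of 0.0313 and 0.04075 in edgeR. In Sham-WM against Sham-Ad lib, Elovl3 was higher at 2.20, Lrat was higher and 4 of 15 acute phase genes were lower. Of all genes, 3.53% were called higher and 3.45% lower there. In VSG against Sham-Ad lib, in which no member was called, 6 of 6 tested neutrophil, 2 of 7 Kupffer cell and 2 of 5 B and plasma cell markers were higher. The share of all genes called higher there was 0.467%. The adipocyte gene Cfd was lower than in Sham-Ad lib in both other groups.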

How the data were processed

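Liver poly(A) RNA of 12 mice was sequenced from strand-specific libraries, 1 mouse per library. The authors aligned reads with TopHat2 (version 2.1.1) to mm10, counted them per gene with featureCounts, and deposited raw counts. Of 46078 rows, 45229 matched GENCODE M21, and 0 columns were left unused. Genes were kept by edgeR's filter (minimum count 10, minimum total 15), scaled by trimmed mean of M-values (TMM), and tested in one quasi-likelihood fit of all 12 libraries (edgeR 4.0.16, limma 3.58.1, R 4.3.3) with Benjamini-Hochberg adjustment over 13054 genes and a threshold of 0.05. CPM are TMM-scaled counts at a common library size, and RPKM divide them by the kilobases of all annotated exons. Fold changes are log2 values of the fit, with SE. Alternatives included DESeq2 1.42.0, other scalings and filters, 2 RUV factors, the other label field and each library left out. The scripts were tested on simulated data.

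Full values were given for members past the threshold in any comparison (at most 10 per family), the 5 highest per length in each family, called members with an oppositely called neighbour, and at most 4 called genes per list and comparison. Members and lists were chosen with earlier results of these data known. Genes named outside this rule (such as Ugt1a1, Ugt1a6a, Ugt1a9, Gsta1, Gsta4, Gstm6, Gstp3, Sult5a1, Ugdh, Slc35b3, Cdo1, Bpnt1, the uncalled hepatocyte markers and the receptors) were chosen after their values were seen. Each library came from a separate mouse, so p values set the difference between groups against the variation between mice. In edgeR this variation was estimated from all 12 libraries together, although the groups differed in spread. Promoters were RefSeq sequences of build GRCm38.p6, and 55 of 63 members had one. Depth was 15122520 to 19384076 counts, and 3 counts were taken as the limit of a count of 0. A few called genes of the lists are counted but not reported here by name.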

Additional observations from a re-analysis of the deposited data

Results flagged for a closer look

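In groups of 4 livers, the highest or lowest liver was compared with its nearest neighbour by Dixon's criterion for 69 combinations of gene and group, of which chance flags about 1 in 20, and 3 stood apart. Ugt2a3 was at 244.7 CPM in Sham-Ad lib library 4F, against 333 to 351 CPM in the other 3. Sult1e1 was at 3.01 CPM in Sham-Ad lib library 10F, against 0.161 to 0.595 CPM in the others of that group. In VSG library 1F Sult1e1 was at 8.54 CPM, against 0.626 to 1.58 CPM in the other 3. VSG library 1F also had the highest neutrophil marker sum, and its part in the level of Sult1e1 was not tested.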

How the results depend on the processing

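The number of members called depended on the setting in each comparison. Shares of all genes called under the alternative settings are not given here. A change in these counts therefore does not set the members apart from other genes. For VSG against Sham-Ad lib it was 0, but 5 with DESeq2, 3 without a filter on low counts and 16 with 2 RUVr factors, and 0 to 3 when single libraries were left out (2 without 4F and 3 without 18F). For Sham-WM against Sham-Ad lib it was 1, but 5 with DESeq2, 4 without the filter, 6 in a fit of the 2 groups only, 6 with 2 RUVs factors, 11 with RUVr and 0 with the other label field, and 0 to 5 when single libraries were left out (0 without 10F, 9F, 15F or 16F, 2 without 8F or 18F, 4 without 1F and 5 without 11F). For VSG against Sham-WM it was 11, but 18 with DESeq2, 3 with RUVs (Gsta3, Gsto1 and Sult1c2), 20 with RUVr and 0 with the other label field, and 4 to 13 when single libraries were left out (4 without 16F, 5 without 2F or 15F, 7 without 9F or 1F). Among the fold changes called in the report, direction reversed 5 times: with the other label field, Ugt2b34 went to 0.185 and Gstp2 to -0.312 in VSG against Sham-WM and Gstm2 to 0.107 in Sham-WM against Sham-Ad lib, and with RUVs Gstp2 went to -0.27 and Sult1e1 to -0.26 in VSG against Sham-WM. Fold changes that were not called also changed sign, for example with the other label field Gsta3 went to -0.286 and Gsta4 to -0.498 in Sham-WM against Sham-Ad lib, and Gstp1 to -0.319 and Gstp2 to -0.75 in VSG against Sham-Ad lib. The cause was not tested. Over the fold changes of the named members under all alternatives, 69 lost the call and 17 gained it. Lengths moved some levels: over the longest coding transcript Sult2a8 was at 435 RPKM, Gstt1 at 201 and Gstk1 at 132. No paired analysis was possible because no animal number occurs in more than 1 group. Depth limits the 21 untested members and the scarce Ugt2b38, Gstp2 and Sult1e1.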
